A study of Mus musculus with 24 samples.

Results

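Cyp11b1, Cyp11b2, Gml and Gml2 are 4 neighbouring genes on mouse chromosome 15, and they are described here in RNA-Seq libraries of NIH 3T3, a mouse fibroblast line that was derived from embryos and grows without limit. The genes were selected on measured values: Cyp11b1 was chosen for its count in YAP-TFE3 cells against empty vector cells, and the others because they adjoin it, so the levels of the 4 genes are given as a description without tests. They were found by their Ensembl identifiers among the 39017 genes of the count files, and all 4 were present. The 24 libraries form 8 groups of 3. YAP-TFE3 and TAZ-CAMTA1 are fusion proteins that join part of a Hippo pathway effector (YAP or TAZ) to part of another transcription factor (TFE3 or CAMTA1). YAP5SA and TAZ4SA are forms of YAP and TAZ with serine sites mutated, TFE3 and CAMTA1 are the full-length partners, and EV is the empty vector. By the study's methods each construct was expressed stably from a retroviral vector in triplicate lines. Cells with YAP-TFE3, TAZ-CAMTA1, TFE3, YAP5SA, TAZ4SA or EV were held at confluence for 48 h. CAMTA1 cells were collected at sub-confluence. The sample titles also name a sub-confluent empty vector group (EVsub), which was used here as the control of CAMTA1. Other data of the study were not analysed here.

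Library totals were 19777954, 28170637 and 22556635 counts in the 3 YAP-TFE3 libraries and ranged from 19981310 to 22419096 in EV. They ranged from 20198078 to 28020955 in EVsub, from 16471181 to 21964589 in TAZ4SA and from 20906035 to 23923921 in TAZ-CAMTA1. In CAMTA1 they ranged from 19823573 to 30132586, in YAP5SA from 19055901 to 26390310 and in TFE3 from 21414273 to 27158220. Values in CPM are counts per 1000000 after TMM scaling of the library totals. A floor of 3 counts, about the one-sided 95% Poisson upper limit for a count of 0, stood at 0.0927 to 0.225 CPM in the 21 libraries outside YAP-TFE3. Such floors and the intervals given below cover counting error only, since the reads carry no molecular identifiers and several may come from the same molecule.

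Cyp11b1 encodes a mitochondrial cytochrome P450 of the adrenal cortex that carries out the last step in the synthesis of corticosterone, the main glucocorticoid of mice. Cyp11b2 encodes its close paralog, aldosterone synthase, which works in the outer zone of the adrenal cortex. Both enzymes take electrons from ferredoxin (Fdx1), which receives them from ferredoxin reductase (Fdxr), and both use substrates made from cholesterol by Star, Cyp11a1, the Hsd3b enzymes and Cyp21a1. Gml and Gml2 encode small proteins of the Ly6/uPAR family, whose members are mostly held at the cell surface by a glycolipid anchor, and many genes of that family lie around them.

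In the GENCODE M21 annotation of the mm10 genome the locus runs from 74813452 to 74856318, a length of 42867 bp. Gml (ENSMUSG00000068349; 74813452 to 74818815, minus strand) lies first, and Gml2 (ENSMUSG00000068600; 74819071 to 74834871, plus strand) starts 255 bp after it. Cyp11b1 (ENSMUSG00000075604; 74834125 to 74841643, minus strand) has 9 exons and overlaps the end of Gml2 on the opposite strand. Cyp11b2 (ENSMUSG00000022589; 74851010 to 74856318, minus strand) lies 9366 bp further on. The exons of Cyp11b1 and Gml2 share 285 bases, from 74834587 to 74834871, which is 9.0% of the exon bases of Cyp11b1 and 20.5% of those of Gml2. The shared stretch lies in exon 9 of Cyp11b1, outside its coding sequence.

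The coding sequences of Cyp11b1 (1503 bases) and Cyp11b2 (1506 bases) aligned over 1503 bases with 87.1% identity, which left 194 differing bases. Because reads can be assigned to one paralog only where the sequences differ, windows of the read length, 75 bases, were compared. Of the 1355 windows without a gap, 221 had no difference at all, and the median window had 9. The 4 sequences below show the extremes among windows that lie in a single exon of each gene, read 5′ to 3′ from the GENCODE M21 transcripts, with capitals marking bases that differ between the paralogs. The first pair, from exon 1 of Cyp11b1 (chr15:74841513-74841587, minus strand) and exon 1 of Cyp11b2 (chr15:74856132-74856206, minus strand), has 0 differences. The second pair, from exon 3 of Cyp11b1 (chr15:74839246-74839320, minus strand) and exon 3 of Cyp11b2 (chr15:74853815-74853889, minus strand), has 29.
Cyp11b1 exon 1: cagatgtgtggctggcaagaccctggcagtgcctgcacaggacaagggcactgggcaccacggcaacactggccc
Cyp11b2 exon 1: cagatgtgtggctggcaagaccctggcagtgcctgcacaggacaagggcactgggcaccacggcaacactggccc
Cyp11b1 exon 3: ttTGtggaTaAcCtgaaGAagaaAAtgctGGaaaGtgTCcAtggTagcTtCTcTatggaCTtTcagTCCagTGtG
Cyp11b2 exon 3: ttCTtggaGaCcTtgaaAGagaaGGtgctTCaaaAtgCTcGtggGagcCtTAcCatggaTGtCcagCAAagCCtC

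Over the whole Cyp11b1 transcript, 221 of its 3091 stretches of 75 bases also occurred in Cyp11b2 and 211 in Gml2 on the opposite strand, together 14.0%. None occurred in the annotated transcripts of any other gene. For Gml2 the share found in Cyp11b1 or Gml was 25.1% of 1460, for Gml the share found in Gml2 was 14.5% of 1076, and for Cyp11b2 the share found in Cyp11b1 was 14.2% of 1551. Most of Cyp11b1 could thus be told apart from its neighbours by a single read, but the study's methods describe both genome alignment with Hisat2 and quantification with Salmon summed to genes by tximport, and do not say which gave the deposited counts or how strand was used. Reads from the shared stretches may therefore have been split, dropped or assigned to either gene.

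Cyp11b1 was counted in every YAP-TFE3 library and was at or near 0 in all others. The 3 YAP-TFE3 libraries held 4189, 2365 and 1380 counts. Of the 21 other libraries, 20 held 0, and TAZ-CAMTA1 replicate 3 held 1. The groups did not overlap, and the empty vector, both mutated effectors, full-length TFE3 and full-length CAMTA1 could not be placed in an order below YAP-TFE3 at this depth. In CPM the YAP-TFE3 libraries stood at 210 (95% exact Poisson interval 204 to 216), 79.2 (76.0 to 82.4) and 58.6 (55.5 to 61.8), a mean of 116 ± 82.1 (SD, n = 3). The highest library was 3.58 times the lowest. Without the highest, replicate 1, the mean was 68.9 CPM. In RNA from whole cultures, more cells with Cyp11b1 and more of its RNA per cell cannot be told apart.

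Against a floor of 3 counts in each library, Cyp11b1 in YAP-TFE3 was at least 864-fold higher than in EV, at least 939-fold higher than in EVsub and at least 952-fold higher than in TFE3. It was at least 708-fold higher than in YAP5SA, at least 688-fold higher than in TAZ4SA and at least 1010-fold higher than in CAMTA1. Against the single count of TAZ-CAMTA1 the ratio was 7710, with an exact counting interval of 1380 to 304000. Without YAP-TFE3 replicate 1, an alternative chosen after seeing the data, the bounds were lower, at least 513-fold against EV, 558-fold against EVsub, 566-fold against TFE3, 421-fold against YAP5SA, 409-fold against TAZ4SA and 601-fold against CAMTA1, and the ratio to TAZ-CAMTA1 was 4990. The 6 lower bounds differ only through the scaled depth of the libraries they are set against.

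Cyp11b2, Gml and Gml2 stayed at or below 3 counts in all 24 libraries. Cyp11b2 had 1 count in all, in TFE3 replicate 3, and 0 in the 3 YAP-TFE3 libraries. Gml had 9 counts over 7 libraries. They were 2, 1 and 0 in YAP-TFE3, 1, 2 and 1 in TAZ-CAMTA1, and 1 each in TAZ4SA replicate 2 and YAP5SA replicate 3. Gml2, which overlaps Cyp11b1, had 6 counts over 3 libraries: 3 in YAP-TFE3 replicate 1, 2 in YAP5SA replicate 1 and 1 in TAZ-CAMTA1 replicate 1. No fold is given for these 3 genes, because every group was at or under the floor, and no difference between groups was detectable at this depth. With 7934 counts of Cyp11b1 in the YAP-TFE3 libraries, Gml2 had 3 and Cyp11b2 had 0.

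**Figure D1:**
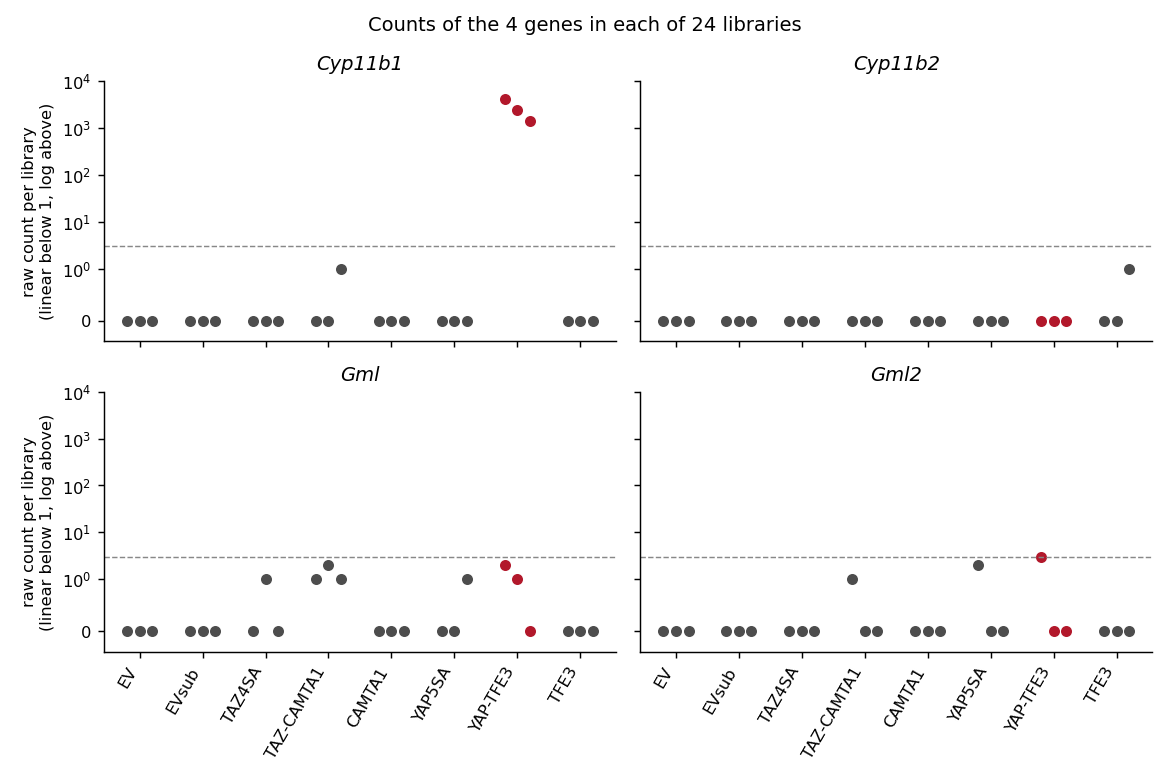
Raw count of Cyp11b1, Cyp11b2, Gml and Gml2 (1 panel each, y axis linear below 1 and logarithmic above) in each of the 24 libraries, by group, with the 3 replicates of a group side by side and YAP-TFE3 in red; the dashed line marks 3 counts. Cyp11b1 has 1380 to 4189 counts in YAP-TFE3 and at most 1 elsewhere, and no library has more than 3 counts of the other genes.

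Per kilobase of exon, which allows genes to be compared, the level in YAP-TFE3 was 36.6 ± 25.9 CPM per kb for Cyp11b1, 0.0387 ± 0.0443 for Gml, 0.0360 ± 0.0624 for Gml2 and 0 for Cyp11b2 (SD, n = 3 each). Among the 14208 tested genes with an annotated length, Cyp11b1 ranked 636th from the top in replicate 1, 1825th in replicate 2 and 2650th in replicate 3. By the mean of the 3 libraries it stood above 91.4% of these genes, whose median level was 5.20 CPM per kb. Of the 4 genes only Cyp11b1 passed the filter of the test across all genes, a mean of at least 5 counts over the libraries, and it passed through its YAP-TFE3 counts alone.

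The steroid pathway around Cyp11b1 was read from a list of 33 steroid synthesis enzymes and cofactors. The enzymes Cyp11a1, Hsd3b1, Hsd3b6 and Cyp21a1, which lead to the substrate of Cyp11b1, were at or near 0 in YAP-TFE3 cells as in EV cells. Cyp11a1, which starts the pathway by cleaving the cholesterol side chain, had 0 counts in all libraries of both groups, as did Hsd3b1 and Hsd3b6, which oxidize its product. Cyp21a1, which makes the direct precursors, had 1, 0 and 0 counts in YAP-TFE3 and 0 in EV, and Cyp17a1 had 0, 3 and 0 against 1, 0 and 0. Star, the carrier that brings cholesterol into mitochondria, was present at a low level, with 37, 53 and 51 counts in YAP-TFE3 and 35, 40 and 47 in EV (log2 fold change 0.08, adjusted p = 0.887, edgeR, quasi-likelihood, adjusted by the Benjamini-Hochberg method over all tested genes).

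The electron donors of Cyp11b1 were present in both groups. Fdx1 had 427, 450 and 442 counts in YAP-TFE3 and 302, 317 and 269 in EV, or 18.4 ± 3.18 against 13.3 ± 1.68 CPM (SD, n = 3 each). The log2 fold change of 0.47 (SE 0.17) was not called at the threshold of 0.05 (adjusted p = 0.0648, edgeR). It was called without EV replicate 2 (adjusted p = 0.0456, edgeR) or without YAP-TFE3 replicate 2 (adjusted p = 0.0315, edgeR), and over all alternatives the adjusted p of Fdx1 ran from 0.0315 to 0.371. Fdxr had 524, 610 and 631 counts against 596, 407 and 523 (log2 fold change 0.12, adjusted p = 0.77, edgeR). Per kilobase, Fdx1 stood at 5.93 ± 1.03 and Fdxr at 8.73 ± 1.26 CPM per kb in YAP-TFE3 (SD, n = 3 each), both below the mean of Cyp11b1.

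Of the 23 genes of the list that could be tested, 4 rose in YAP-TFE3 against EV and 0 fell by edgeR (0 at an unadjusted p under 0.05, 0 by DESeq2), where 10.6% of all tested genes were called higher and 4.74% lower. The median log2 fold change of the list was 0.06, against 0.00 for all tested genes. Hsd11b1, whose enzyme regenerates active glucocorticoids from their inert keto forms, had 148, 76 and 46 counts in YAP-TFE3 and 3, 30 and 5 in EV. Every YAP-TFE3 library was above every EV library in CPM, at 7.42, 2.54 and 1.95 against 0.127, 1.43 and 0.221. Its log2 fold change was 2.75 (SE 0.588, adjusted p = 0.00201, edgeR). Of the EV counts most came from replicate 2, and without it the log2 fold change was 4.46 (adjusted p = 7.1e-05, edgeR). Without YAP-TFE3 replicate 1, which held most of the YAP-TFE3 counts, it was 1.93 (adjusted p = 0.0381, edgeR), and over the 11 of 12 alternatives in which Hsd11b1 could be tested, all but that of at least 10 counts in every library, the adjusted p ran from 2.11e-06 to 0.0461. Hsd11b1 was also higher in YAP-TFE3 than in TAZ-CAMTA1, where it had 5, 9 and 6 counts (3.77, adjusted p = 0.000381, edgeR), and than in TFE3, where it had 8, 4 and 5 (4.07, adjusted p = 7.84e-05, edgeR). The level in the empty vector cells itself differed with density. In EVsub Hsd11b1 had 0, 1 and 1 counts and was called lower than in EV (-4.16, adjusted p = 0.0109, edgeR). In YAP5SA it had 5, 1 and 1 and was also called lower (-2.15, adjusted p = 0.0412, edgeR).

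The other rises of the list were smaller. Hsd17b10, a mitochondrial dehydrogenase with several substrates, went from 71.4 ± 5.46 to 112 ± 11.8 CPM (0.65, adjusted p = 0.00077, edgeR). Npc1, which exports cholesterol from lysosomes, went from 80.8 ± 1.37 to 139 ± 17.3 CPM (0.78, adjusted p = 0.00134, edgeR), and it rose in TFE3 cells as well, to 150 ± 0.593 (0.89, adjusted p = 0.00244, edgeR). Cyb5a, the cytochrome b5 that assists several P450 enzymes, went from 111 ± 6.13 to 174 ± 29.4 CPM (0.65, adjusted p = 0.00521, edgeR; SD, n = 3 each throughout). Without YAP-TFE3 replicate 1 Cyb5a was not called (adjusted p = 0.0837, edgeR; 0.000362 to 0.0837 over all alternatives). In YAP5SA against EV, where 71.2% of all tested genes were called, Hsd17b10 (0.71, adjusted p = 3.06e-05, edgeR) and Npc1 (0.73, adjusted p = 0.000305, edgeR) rose as well. Cyb5a fell there (-1.23, adjusted p = 4.32e-07, edgeR). Hsd17b10 and Npc1 were not called in YAP-TFE3 against YAP5SA (adjusted p = 0.689 and 0.797, edgeR). Npc2, the most abundant gene of the list, had 624 ± 66.7 CPM in YAP-TFE3 and 733 ± 67.8 in EV and did not pass (adjusted p = 0.514, edgeR). Genes with too few counts to test, and Star, Fdx1, Fdxr and the genes named for other groups, were named for their roles or calls after their values were seen.

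**Figure D2:**
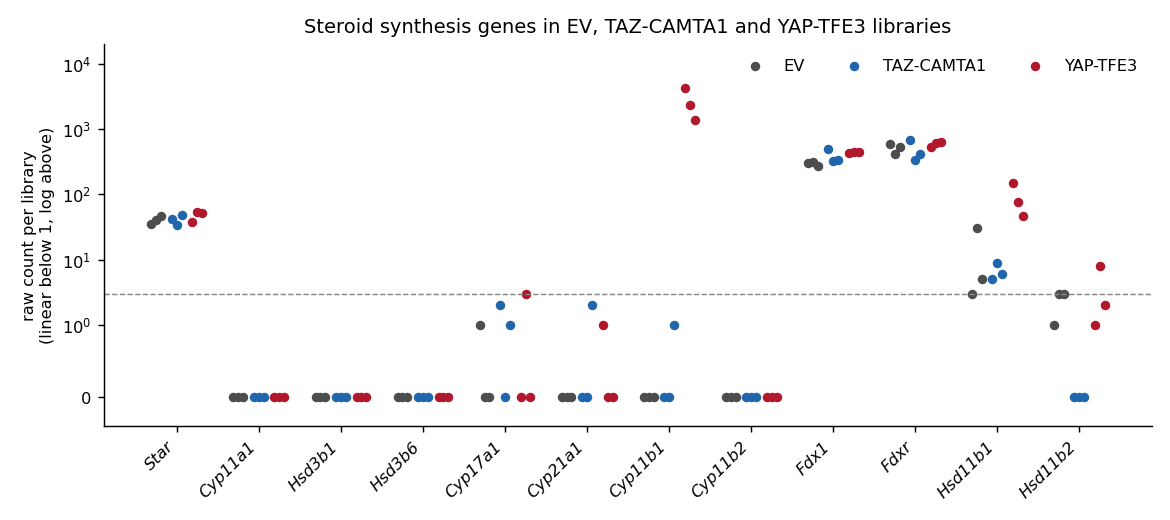
Raw counts per library (y axis linear below 1 and logarithmic above) of 12 steroid synthesis genes in the 3 EV (grey), 3 TAZ-CAMTA1 (blue) and 3 YAP-TFE3 (red) libraries, with a dashed line at 3 counts. Cyp11b1 has 1380 to 4189 counts in YAP-TFE3 beside 0 counts of Cyp11a1, Hsd3b1, Hsd3b6 and Cyp11b2, while Fdx1 and Fdxr have at least 269 counts in every library shown.

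Calls on the same list were also counted in the other groups. In TAZ-CAMTA1 against EV, 3 of the 23 genes fell (Hsd17b11, Soat1 and Npc2) and 0 rose by edgeR (1 at an unadjusted p under 0.05, 0 by DESeq2), where 12.5% of all tested genes were called higher and 8.98% lower. Npc2 had a log2 fold change of -0.70 (adjusted p = 0.0175, edgeR), and the call was lost without EV replicate 1 or 3 or TAZ-CAMTA1 replicate 2 or 3 (adjusted p from 0.058 to 0.0794, edgeR; 0.0011 to 0.0794 over all alternatives). In YAP-TFE3 against TAZ-CAMTA1 directly, 6 were higher and 1 lower, with 6.32% of all tested genes higher and 5.32% lower. Calls in either direction numbered 19 in YAP5SA against EV, where 71.2% of all tested genes were called, and 15 in TAZ4SA against EV, where 57.5% were. They numbered 5 in TFE3 against EV (3.38% of all genes), 0 in CAMTA1 against EVsub by edgeR (2.18% of all genes; 3 of the list at an unadjusted p under 0.05, 1 by DESeq2) and 7 in EVsub against EV (22.1%). YAP-TFE3 differed from YAP5SA at 18 of the genes (70.9% of all genes) and from TFE3 at 7 (22.9%). The comparisons with EV share the same EV libraries.

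Regulators and receptors of steroid-producing cells formed a second list of 26 genes, of which 18 could be tested. In YAP-TFE3 against EV, 1 rose and 1 fell by edgeR, where 10.6% of all tested genes rose and 4.74% fell. The median log2 fold change was 0.00. At an unadjusted p under 0.05 there were 3 higher and 2 lower, and by DESeq2 1 and 2. Nr4a1, named after its values were seen, had 19.3 ± 6.32 CPM in YAP-TFE3 and 8.59 ± 2.91 in EV (SD, n = 3 each). It was not called against EV (1.18, adjusted p = 0.0599, edgeR) but was called higher than in TAZ-CAMTA1 (adjusted p = 0.0227, edgeR). It was also called higher than in EV in YAP5SA and TAZ4SA (adjusted p = 0.000242 and 0.00975, edgeR). Nr5a1, the nuclear receptor that defines steroid-producing cells, had 0, 2 and 0 counts in YAP-TFE3 and 0 in EV, and Nr0b1 and Nr5a2 had 0 in both. Kcnk3, a potassium channel gene active in the adrenal cortex, had 15, 22 and 38 counts in YAP-TFE3 and 127, 43 and 111 in EV, a log2 fold change of -1.99 (SE 0.406, adjusted p = 0.00134, edgeR). Kcnk3 was lower than in EV in TAZ-CAMTA1 as well (-2.47, adjusted p = 0.000188, edgeR), where it had 30, 13 and 10 counts, and it had 2, 2 and 0 counts in YAP5SA and 3, 1 and 0 in TAZ4SA. In TFE3 cells Kcnk3 was higher than in EV, at 10.8 ± 1.30 against 4.11 ± 1.79 CPM (SD, n = 3 each; 1.38, adjusted p = 0.0312, edgeR), and that call was lost without EV replicate 2 or 3 or any of the 3 TFE3 replicates (adjusted p from 0.065 to 0.144, edgeR; 0.000733 to 0.144 over the 11 of 12 alternatives in which Kcnk3 could be tested, all but that of at least 10 counts in every library). Gata4, a transcription factor of gonadal and fetal adrenal cells, was called higher in YAP-TFE3 (23.8 ± 1.00 against 16.7 ± 2.52 CPM; SD, n = 3 each; 0.51, adjusted p = 0.0395, edgeR). The call of Gata4 was lost in a fit with a replicate block (adjusted p = 0.0506, edgeR) and when any 1 of the 6 libraries was left out (adjusted p from 0.0549 to 0.164, edgeR; 0.0249 to 0.164 over all alternatives). Gata4 was also called higher in TAZ-CAMTA1 than in EV (0.58, adjusted p = 0.0136, edgeR), though not without EV replicate 2 (adjusted p = 0.0681, edgeR) or TAZ-CAMTA1 replicate 3 (adjusted p = 0.0548, edgeR; 0.00608 to 0.0681 over all alternatives), and stood at 30.3 ± 2.56 CPM in YAP5SA and 32.4 ± 11.0 in TAZ4SA (SD, n = 3 each). Prkar1a, the most abundant gene of this list and a regulatory subunit of protein kinase A, had 427 ± 23.8 CPM in YAP-TFE3 and 405 ± 11.2 in EV (SD, n = 3 each; adjusted p = 0.68, edgeR).

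The identity of the cells was read from markers of fibroblasts and of adrenocortical cells. All 10 fibroblast markers were detected in every group, and their summed level was 54100, 43400 and 41200 CPM in the YAP-TFE3 libraries and 35800, 38500 and 39400 in EV. Fn1, the fibronectin gene, was the most abundant in both groups, at 17300 ± 1450 and 17500 ± 1380 CPM (SD, n = 3 each). The 9 adrenocortical markers summed to 2.61, 2.21 and 3.10 CPM in YAP-TFE3 and to 1.90, 2.63 and 2.52 in EV, with Star the most abundant in both. In YAP-TFE3, 7 of the 9 had at most 3 counts in every library, and Cyp11a1, Hsd3b1, Mrap and Nr0b1 were at 0. Star and Mc2r, the only ones tested, were not called by edgeR (0 at an unadjusted p under 0.05, 0 by DESeq2). Apart from these genes, the markers that define adrenocortical cells were at or near 0 in the libraries that held Cyp11b1. Of the 10 fibroblast markers 3 rose and 1 fell in YAP-TFE3 against EV, where 10.6% of all tested genes rose and 4.74% fell. Thy1 went from 38.0 ± 4.08 to 107 ± 33.4 CPM (SD, n = 3 each; 1.49, adjusted p = 9.8e-06, edgeR). Thy1 was also called higher than in EV in YAP5SA (2.36, adjusted p = 7.6e-10, edgeR) and TAZ4SA (1.66, adjusted p = 2.88e-07, edgeR). The same held in TAZ-CAMTA1 (0.76, adjusted p = 0.006, edgeR) and EVsub (0.96, adjusted p = 0.00104, edgeR), but not in TFE3 (adjusted p = 0.769, edgeR). The rises of Col1a1 (0.97, adjusted p = 0.00974, edgeR) and Col1a2 (0.82, adjusted p = 0.00643, edgeR) were not called without YAP-TFE3 replicate 1 (adjusted p = 0.0861 and 0.0837, edgeR), nor was that of Col1a1 without EV replicate 1 (adjusted p = 0.0531, edgeR). Over all alternatives the adjusted p ran from 4.59e-05 to 0.0861 for Col1a1 and from 0.000183 to 0.0837 for Col1a2. The fall of Pdgfrb by 0.37 (adjusted p = 0.0459, edgeR) was lost under 8 of 12 alternatives, with adjusted p from 0.0151 to 0.28 over all of them (edgeR and DESeq2), the highest without EV replicate 3.

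The genes around the locus were read in the same libraries. Within 500 kb there were 25 other annotated genes listed in the files, 3 of them with 0 counts in every library, and 8 of them could be tested; the other 17 had at most 14 counts in any library. The nearest protein-coding genes on the lower side were Ly6k with 0 counts in all libraries, Ly6d with at most 8, and Lynx1. On the higher side they were 2010109I03Rik with at most 3 counts, Ly6e, and Ly6i with at most 14. In YAP-TFE3 against EV 1 of the 8 tested neighbours was called, as higher, where 10.6% of all tested genes were higher, and their median log2 fold change was 0.16. In TAZ-CAMTA1 against EV 5 of the 8 rose, where 12.5% of all tested genes did, with a median of 1.14 against 0.00 for all tested genes. In the direct comparison 5 were lower in YAP-TFE3 than in TAZ-CAMTA1, where 5.32% of all tested genes were, and 0 higher by edgeR (0 at an unadjusted p under 0.05, 0 by DESeq2). Psca was among the called neighbours in each of these comparisons. It passed the filter on low counts mainly through its TAZ-CAMTA1 and YAP5SA libraries, so the counts are a description.

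Psca, a Ly6/uPAR gene 96383 bp below the locus that encodes prostate stem cell antigen, had 140, 207 and 241 counts in TAZ-CAMTA1, 104, 136 and 54 in YAP5SA, 11, 8 and 3 in TAZ4SA, 13, 7 and 6 in YAP-TFE3 and 0, 1 and 0 in EV. It had 16, 3 and 6 counts in CAMTA1, 2, 3 and 0 in EVsub and 0 in TFE3. Every library of TAZ-CAMTA1, YAP5SA, TAZ4SA, YAP-TFE3 and CAMTA1 was above every EV library, and the mean of CAMTA1 was 0.302 CPM beside 0.380 in YAP-TFE3. CAMTA1 was not called against EVsub (log2 fold change 2.10, adjusted p = 0.204, edgeR). The ratio of summed counts to EV, scaled for library size, was 555 in TAZ-CAMTA1 (exact counting interval 99.2 to 22000), 355 in YAP5SA (63.3 to 14100), 26.3 in TAZ4SA (4.25 to 1090) and 23.8 in YAP-TFE3 (3.91 to 977). Against EV, TAZ-CAMTA1, YAP5SA, TAZ4SA and YAP-TFE3 were called (adjusted p = 6.24e-08, 1.66e-08, 0.00317 and 0.0147, edgeR). Psca passed the filter on low counts mainly through its TAZ-CAMTA1 and YAP5SA libraries, so these calls are given as a description. The call in YAP-TFE3 was lost without EV replicate 1 (adjusted p = 0.068, edgeR), EV replicate 3 (adjusted p = 0.0683, edgeR) or YAP-TFE3 replicate 1 (adjusted p = 0.0898, edgeR; 0.000504 to 0.0898 over the 10 of 12 alternatives in which Psca could be tested). Psca had too few counts for the test in a fit of the 2 groups alone or with at least 10 counts required in every library. It was lower in YAP-TFE3 than in TAZ-CAMTA1 by a log2 fold change of -4.50 (SE 0.48, adjusted p = 3.12e-06, edgeR).

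On the higher side, Ly6a, Ly6e and Ly6c1 were detected in every library and had their highest mean CPM in TAZ-CAMTA1. Ly6a, which encodes the stem cell antigen Sca-1, had 383, 448 and 441 CPM in TAZ-CAMTA1, 114, 71.6 and 132 in YAP-TFE3 and 77.1, 123 and 85.2 in EV. The log2 fold change of Ly6a in TAZ-CAMTA1 was 2.16 (SE 0.227, adjusted p = 3.99e-07, edgeR), while YAP-TFE3 and EV overlapped (0.16, adjusted p = 0.71, edgeR). Ly6e had 386, 495 and 500 CPM in TAZ-CAMTA1, 113, 119 and 139 in YAP-TFE3 and 145, 199 and 152 in EV. Compared with EV, Ly6e changed by 1.48 (log2) in TAZ-CAMTA1 (SE 0.179, adjusted p = 2.88e-06, edgeR) and -0.42 in YAP-TFE3, where it was not called (adjusted p = 0.118, edgeR). Ly6c1 had 51.4, 66.0 and 68.4 CPM in TAZ-CAMTA1, 17.4, 13.4 and 23.1 in YAP-TFE3 and 23.1, 32.0 and 26.1 in EV. It rose in TAZ-CAMTA1 (1.20, adjusted p = 0.000253, edgeR). In YAP-TFE3 its log2 fold change was -0.59 (adjusted p = 0.0646, edgeR), which was called when genes with low counts were kept (adjusted p = 0.0173, edgeR), by DESeq2 (adjusted p = 0.0365) and without YAP-TFE3 replicate 3 (adjusted p = 0.0175, edgeR; 0.0173 to 0.277 over all alternatives). The Ly6 genes are close paralogs, so the counting may have split some of their reads. Them6, which lies next to Psca, had 20.1, 19.3 and 18.8 CPM in TAZ-CAMTA1, 11.0, 8.64 and 11.2 in YAP-TFE3 and 9.12, 9.88 and 8.54 in EV, a rise in TAZ-CAMTA1 of 1.08 (adjusted p = 0.000821, edgeR). The direct comparison of YAP-TFE3 with TAZ-CAMTA1 called Ly6a (-2.00, adjusted p = 3.19e-06), Ly6e (-1.90, adjusted p = 4.76e-07), Ly6c1 (-1.79, adjusted p = 7.62e-06) and Them6 (-0.91, adjusted p = 0.00635), all lower in YAP-TFE3 by edgeR. Ly6a, Ly6c1 and Them6 were named after their values were seen.

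**Figure D3:**
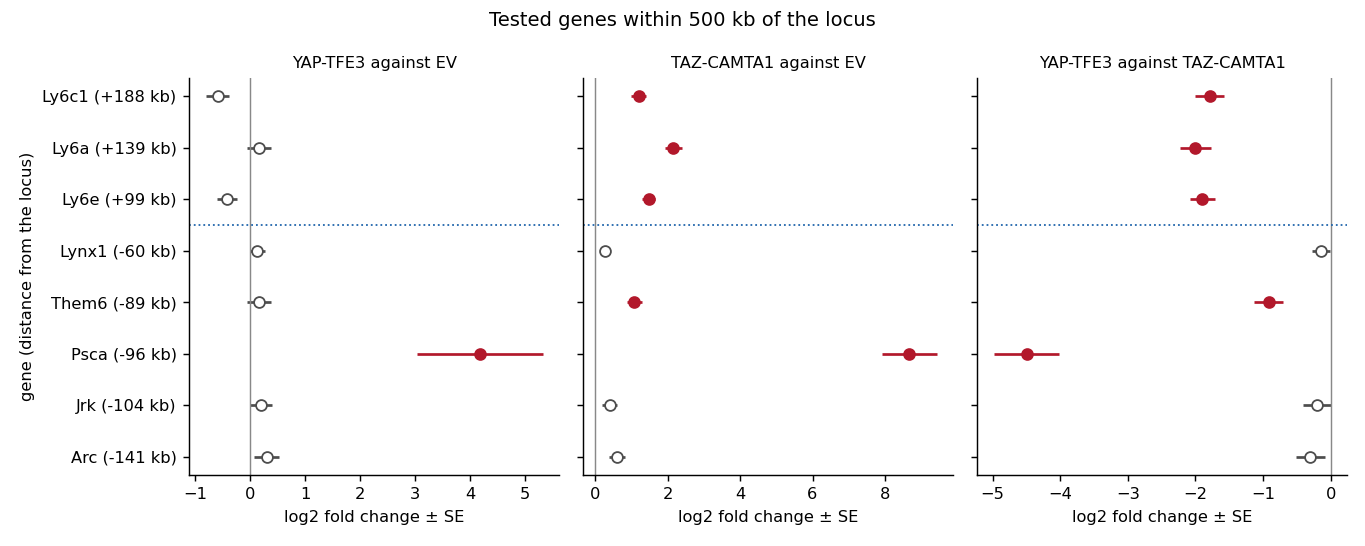
Log2 fold change with its standard error (x axis, edgeR) of the 8 tested genes within 500 kb of the locus, in order along the chromosome with their distance from it, in YAP-TFE3 against EV, TAZ-CAMTA1 against EV and YAP-TFE3 against TAZ-CAMTA1; red filled points passed an adjusted p of 0.05 and the dotted line marks the locus. Psca, Them6, Ly6e, Ly6a and Ly6c1 were higher in TAZ-CAMTA1 than in EV and than in YAP-TFE3; the fold changes of Psca against EV rest on a single EV count.

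The neighbours were also read in the other groups. In YAP5SA against EV 6 of the 8 were called, where 71.2% of all tested genes were, and in TAZ4SA against EV also 6, where 57.5% were, so these counts are near those of genes in general. Jrk, a gene for a DNA-binding protein 103917 bp below the locus, had 1.04 ± 0.339 CPM in YAP5SA, 2.43 ± 1.19 in TAZ4SA and 11.0 ± 1.90 in EV (SD, n = 3 each), log2 fold changes of -3.40 (adjusted p = 2.4e-10, edgeR) and -2.13 (adjusted p = 1.26e-07, edgeR). In YAP-TFE3 it stood at 12.7 ± 0.0583 CPM (SD, n = 3; adjusted p = 0.599, edgeR), higher than in YAP5SA (3.60, adjusted p = 1.44e-10, edgeR). In CAMTA1 against EVsub 3 of the 8 were called higher, Ly6a, Ly6c1 and Lynx1, where 2.18% of all tested genes were called in either direction. The calls of Ly6a and Ly6c1 were lost without CAMTA1 replicate 1 (adjusted p = 0.135 and 0.146, edgeR), without EVsub replicate 2 (adjusted p = 0.132 and 0.139, edgeR) and in a fit of the 2 groups alone (adjusted p = 0.11 and 0.138, edgeR). Over all alternatives the adjusted p ran from 1.51e-05 to 0.135 for Ly6a and from 9.41e-05 to 0.146 for Ly6c1. Lynx1 encodes a modulator of nicotinic acetylcholine receptors. Lynx1 had 89.1 ± 14.4 CPM in CAMTA1 and 33.2 ± 5.12 in EVsub (SD, n = 3 each; 1.42, adjusted p = 1.74e-06, edgeR). In TFE3 against EV 0 of the 8 were called by edgeR (1 at an unadjusted p under 0.05, 0 by DESeq2), where 3.38% of all tested genes were called. In EVsub against EV Ly6a was called (adjusted p = 0.0487, edgeR; 22.1% of all tested genes), and the call was lost under 7 of 12 alternatives, with EV replicate 2 or 3 or any EVsub library left out among them (adjusted p from 0.00612 to 0.258 over all alternatives). YAP-TFE3 differed from YAP5SA at 5 of the 8 neighbours (70.9% of all tested genes) and from TFE3 at 1, Psca (22.9% of all tested genes). Jrk was named after its values were seen.

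Of the 39 listed Ly6/uPAR genes, 36 were matched and 8 could be tested, 5 of which are neighbours of the locus. One of them, Lypd5, passed the filter only through YAP-TFE3 and is left out of the counts that follow. Of the other 7, in YAP-TFE3 against EV 3 rose and 0 fell by edgeR (2 at an unadjusted p under 0.05, 1 by DESeq2), where 10.6% of all tested genes rose and 4.74% fell, with a median log2 fold change of 0.16. In TAZ-CAMTA1 against EV 6 of the 7 rose and 0 fell by edgeR (0 at an unadjusted p under 0.05, 0 by DESeq2), where 12.5% of all tested genes rose and 8.98% fell, with a median of 1.83. A gene that is near 0 in most groups enters the test only through the group in which it is high, so these counts do not stand for the whole list. Psca, which entered mainly through TAZ-CAMTA1 and YAP5SA, was among the genes that rose in both comparisons. Lypd5, which lies outside the locus, had 320, 197 and 66 counts in YAP-TFE3, 0 in the 3 EV libraries and 2, 3 and 1 in TAZ-CAMTA1. It was at least 63.2-fold higher in YAP-TFE3 than in EV against a floor of 3 counts in each library. The ratio to TAZ-CAMTA1 was 94.4 (exact counting interval 43.1 to 258). Without YAP-TFE3 replicate 1, likewise chosen after seeing the data, the bound for Lypd5 was at least 35.0-fold and the ratio 58.5, and no test is given for this gene. Cd59a, an inhibitor of complement attack, had 18.1, 11.6 and 11.9 CPM in YAP-TFE3, 11.4, 13.5 and 10.4 in TAZ-CAMTA1 and 3.42, 2.82 and 3.67 in EV, a rise of 2.06 in YAP-TFE3 (SE 0.224, adjusted p = 1.07e-06, edgeR). Plaur, the receptor of urokinase, had 16.3, 14.3 and 13.1 CPM in YAP-TFE3, 32.5, 54.0 and 48.7 in TAZ-CAMTA1 and 5.44, 7.83 and 6.99 in EV. Its rise against EV was 1.11 in YAP-TFE3 (adjusted p = 0.00373, edgeR), and it was lower there than in TAZ-CAMTA1 (-1.63, adjusted p = 8.17e-05, edgeR). Plaur was also called higher than in EV in YAP5SA (3.56, adjusted p = 1.23e-10, edgeR) and TAZ4SA (2.96, adjusted p = 5.5e-09, edgeR). The same held in TAZ-CAMTA1 (2.74, adjusted p = 8.61e-08, edgeR) and EVsub (1.78, adjusted p = 5.05e-05, edgeR), but not in TFE3 (adjusted p = 0.868, edgeR). Ly6e was the most abundant gene of this list.

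To place the pattern of Cyp11b1 among all genes, genes were counted that had at most 3 counts in every control library and at least 100 in every library of a group. Of 23894 genes that low in EV, 9 were switched on by this measure in YAP-TFE3 (0.0377%), 7 in TAZ-CAMTA1 (0.0293%), 21 in YAP5SA (0.0879%) and 9 in TAZ4SA (0.0377%). There were 0 in TFE3, and 0 in CAMTA1 against EVsub. Since Cyp11b1 was chosen for this pattern, its place among the 9 is a description. Its lowest YAP-TFE3 count was 1380, and the next genes were Crct1 with 510, Ptprt with 404, Gm7609 with 216 and Prg4 with 202. Als2cl had a lowest count of 150, Sh3tc1 143, Gm43154 136 and Tph1 111.

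The other 8 genes also had counts in groups apart from YAP-TFE3. Their highest count in the 21 other libraries ranged from 5 for Tph1 to 485 for Sh3tc1, whereas that of Cyp11b1 was 1. Ptprt and Sh3tc1 were switched on in TAZ-CAMTA1 as well, with 133 to 165 and 288 to 421 counts. With the limit set at 10 counts in place of 100, 104 genes were switched on in YAP-TFE3, and 21 of them had at most 3 counts in every one of the 21 other libraries. With 1000 counts, Cyp11b1 was the only gene left in YAP-TFE3, and YAP5SA and TAZ4SA also had 1 gene each at that limit. With 0 counts required in every EV library, 4 of the 9 genes were left. The genes named here other than Cyp11b1 were picked by this count after their values were seen.

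**Figure D4:**
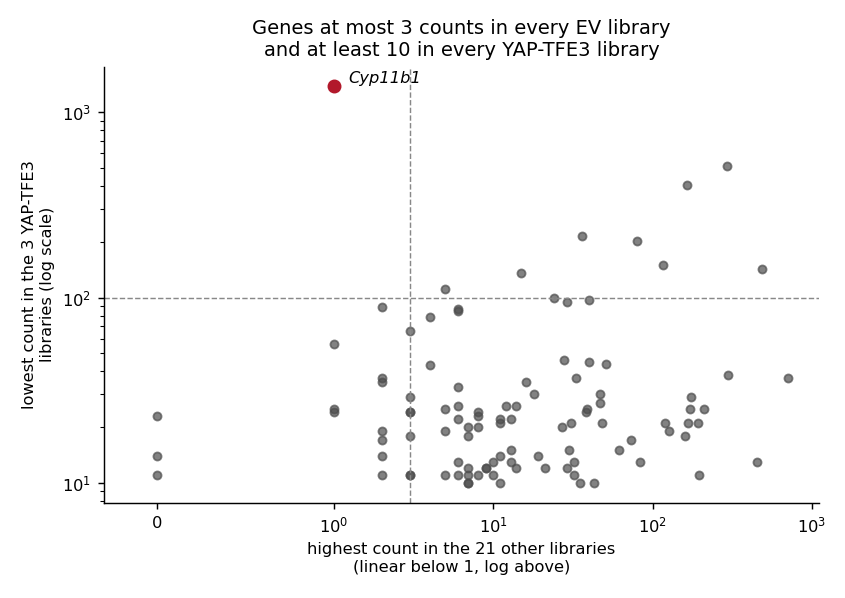
Lowest count in the 3 YAP-TFE3 libraries (y axis, logarithmic) against the highest count in the 21 other libraries (x axis, linear below 1 and logarithmic above) for the 104 genes with at most 3 counts in every EV library and at least 10 in every YAP-TFE3 library; dashed lines mark 100 and 3 counts. Cyp11b1 (red) has the highest y value, 1380, at an x value of 1.

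The 5 tested genes whose log2 CPM was most correlated with that of Cyp11b1 over the 24 libraries were Ankrd29 (Pearson r = 0.992), Nox3 (0.991), Lyz1 (0.987), Map7d2 (0.986) and Trim30c (0.981). These correlations describe a difference between the 3 YAP-TFE3 libraries and 21 libraries near 0, and they carry no test. Ankrd29, an ankyrin repeat gene, had 213, 152 and 89 counts in YAP-TFE3 and at most 2 elsewhere. Nox3, an NADPH oxidase known from the inner ear, had 56, 48 and 25 counts and at most 1 elsewhere. Lyz1, a lysozyme gene whose reads may be split with its paralog Lyz2, had 80, 48 and 24 and at most 1 elsewhere. Map7d2, which encodes a microtubule-associated protein, had 133, 66 and 56 and at most 1 elsewhere, and Trim30c, of the tripartite motif family, had 71, 45 and 35 and at most 2. All 5 had at most 2 counts in the other 21 libraries, and in YAP-TFE3 their counts were below those of Cyp11b1. Spearman's rho with Cyp11b1 ranged from 0.842 to 0.917. With Spearman in place of Pearson correlation 2 of the 5 (Nox3 and Lyz1) were in the top 5, and with a prior count of 0.5 in place of 2, 4 were.

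**Figure D5:**
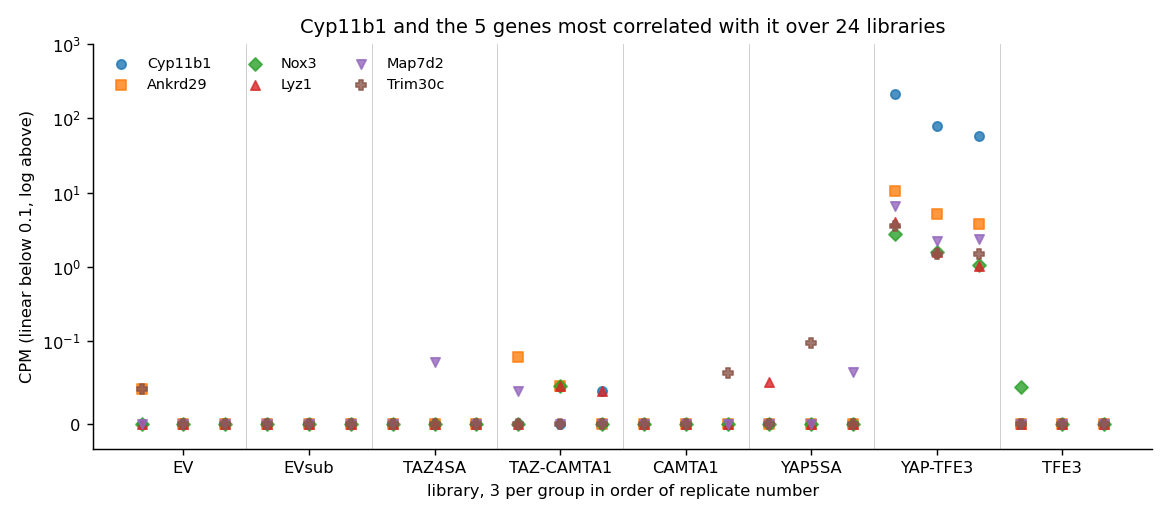
CPM (y axis, linear below 0.1 and logarithmic above) of Cyp11b1 and the 5 genes most correlated with it in each of the 24 libraries, 3 per group. In YAP-TFE3 Cyp11b1 stands at 58.6 to 210 CPM and the others at 1.02 to 10.7, and YAP-TFE3 replicate 1 is the highest library for each of the 6 genes. The 5 genes were chosen by their correlation with Cyp11b1, so this shared order is in part set by the choice.

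YAP-TFE3 replicate 1 held the highest value of Cyp11b1, and it also held the highest value of many other genes. Of the 104 genes with at least 10 counts in every YAP-TFE3 library and at most 3 in every EV library, 98 (94.2%) had their highest CPM in replicate 1, 4 in replicate 2 and 2 in replicate 3. Of the 1523 genes called higher in YAP-TFE3 against EV, 1325 (87.0%) were highest in replicate 1, as were 34.6% of all tested genes. Without replicate 1 the mean of Cyp11b1 was 68.9 CPM in place of 116, and 1093 genes were called in YAP-TFE3 against EV in place of 2203 (1451 without EV replicate 3). The part that differences between these libraries play in the level of Cyp11b1 was not tested, but each of the 3 libraries alone had at least 1380 counts of it.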

How the data were processed

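The authors deposited raw counts by Ensembl gene, not normalized. By the study's methods they came from stranded, paired-end 75 bp libraries of polyadenylated RNA processed with bcbio-nextgen 1.0.8 and Hisat2 on mm10 with Ensembl release 97, and the submitters' processing notes name bcl2fastq and mm10. The methods also name Salmon and tximport for gene-level quantification, and do not say which route gave the deposited counts. Groups and replicate numbers came from sample titles; the description of YAP-TFE3 replicate 3 names another replicate.

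Symbols, lengths and coordinates came from GENCODE M21 (GRCm38), which matched 37607 of 39017 identifiers. The release of the identifiers in the files may differ from it. Counts were tested with edgeR 4.0.16 in R 4.3.3 (quasi-likelihood test, TMM, all 24 libraries in one fit) on the 14361 genes that averaged 5 counts or more per library, and called at a Benjamini-Hochberg adjusted p under 0.05. The test was tested on simulated data for YAP-TFE3 against EV. It recovered 142 of 200 genes changed by 1 (log2; 71%), with 11 false calls. Of 200 genes changed by 2 it recovered 179 (89.5%), with 5 false calls. Each simulation took the EV means for every group and changed only 200 genes, in YAP-TFE3. In the data many more genes were called, 2203 in this comparison, so these figures may not hold there. Lines were made separately by the methods, and p-values measure the spread between them. Replicates differed by more than sampling noise (chi-square per degree of freedom 5.92 to 124).

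The members and lists were chosen with earlier results of these data known. Named genes were the members, the 3 nearest protein-coding genes on each side, up to 5 genes of each list and of the neighbours within 500 kb with the smallest adjusted p among those called in YAP-TFE3 against EV, the most abundant gene of each list, and the 5 most correlated with Cyp11b1 (prior count 2). Alternatives were DESeq2 1.42.0, its size factors, other filters on low counts, a replicate block, only the 2 groups compared, each library left out, and other floors, limits and correlations. Promoter and protein sequences of the members were not analysed here. Other computations used Python 3.11.15.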

Additional observations from a re-analysis of the deposited data

How the results depend on the processing

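Cyp11b2, Gml and Gml2 had at most 3 counts in any library, so depth limits what can be said of them. Of 818 values of 70 gene results under the alternatives, 765 kept their side of the threshold, 47 lost the threshold and 6 gained it. The 1 change of direction was that of Ly6a in YAP-TFE3 against EV, not called either way, at -0.04 (log2) without YAP-TFE3 replicate 3 against 0.16 with all libraries. With each library left out in turn, the genes called numbered 1093 to 2254 in YAP-TFE3 against EV (2203 with all libraries; fewest without YAP-TFE3 replicate 1), 2017 to 3202 in TAZ-CAMTA1 against EV (3088; fewest without EV replicate 3), 192 to 286 in TFE3 against EV (485), 72 to 709 in CAMTA1 against EVsub (313), 1971 to 3671 in EVsub against EV (3173; fewest without EV replicate 3), 829 to 1543 in YAP-TFE3 against TAZ-CAMTA1 (1671; fewest without TAZ-CAMTA1 replicate 2) and 2161 to 2963 in YAP-TFE3 against TFE3 (3288; fewest without YAP-TFE3 replicate 1). The steroidogenic regulators and receptors called in YAP-TFE3 against EV then numbered 1 to 3 (2) and the neighbours called there 0 to 2 (1). In a fit of only the 2 groups compared, 1525 genes were called in TFE3 against EV, 22 in CAMTA1 against EVsub, 1706 in EVsub against EV, 2645 in YAP-TFE3 against TAZ-CAMTA1, 5023 in YAP-TFE3 against TFE3, and 0 neighbours in YAP-TFE3 against EV. With no filter on low counts, 674 genes were called in CAMTA1 against EVsub, 4 regulators and 2 neighbours in YAP-TFE3 against EV, and 9 neighbours in TAZ-CAMTA1 against EV (5). More genes were tested at that setting, so its list counts are not comparable with the main ones as shares. With at least 10 counts required in every library, 2 Ly6/uPAR genes (4, Lypd5 among them) and 0 neighbours were called in YAP-TFE3 against EV, where fewer genes were tested. By DESeq2, 639 genes were called in CAMTA1 against EVsub and 2 neighbours in YAP-TFE3 against EV. With a floor of 1 count, Cyp11b1 was at least 2590-fold higher in YAP-TFE3 than in EV. With a YAP-TFE3 library left out, an alternative chosen after seeing the data, the bound at 3 counts was at least 513-fold to 1080-fold (864). Genes switched on in YAP-TFE3 numbered 104 at 10 counts, 1 at 1000 counts and 4 with 0 counts in every EV library (9). Other than for fewer genes or libraries, the cause was not tested.

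With a replicate block in the fit, 2170 genes were called in YAP-TFE3 against EV.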
